A study of Homo sapiens with 4 samples.

Results

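Chromosome 19 carries the densest collection of zinc finger genes in the human genome, and the ends of these genes were read in 4 CUT&Tag libraries of 22RV1 cells. Members were the protein-coding chromosome 19 genes of RefSeq whose symbol is ZNF followed by digits, with at most a trailing letter. They numbered 246, of 20037 protein-coding genes in all, and were set beside the 1205 other protein-coding genes of chromosome 19.

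22RV1 is an established human prostate cancer cell line. In CUT&Tag an antibody directs a transposase to the chromatin around its target and the released fragments are sequenced, whereas the labels' protocol describes fixed, sonicated chromatin with input and immunoprecipitated material. The antibody target is not given in the sources used here. There were 4 libraries, 1 per group: cells given PD0332991 (palbociclib, an inhibitor of the kinases CDK4 and CDK6), the control of that inhibitor, cells given an siRNA against RB, and the control of that siRNA. The labels give no dose, no duration and no sequence of either siRNA, and all groups share the cell line and culture medium. The series title concerns phosphorylated RB, the retinoblastoma protein, and its effect on the transcription factor ETS1. With 1 library per group no difference has a replicate check, no p-value was computed, and each statement compares libraries, not conditions.

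ZNF genes encode proteins with arrays of C2H2 zinc fingers, short loops held by a zinc ion that read DNA bases in series. Many of those on chromosome 19 also have a KRAB domain, which recruits the corepressor TRIM28 and with it the histone methyltransferase SETDB1, so that the bound DNA, often a retrotransposon, is packed into heterochromatin. The genes arose by repeated tandem duplication and stand in clusters of similar copies. Reads that align to several copies can be split or dropped. How such reads were handled is not given in the sources used here, so its part in the values below was not tested.

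Each deposited list is a set of intervals with 1 summit each, the highest point of that interval. The intervals nearly tile chromosome 19, which held 299 of them in the inhibitor control, 93 under PD0332991, 236 with control siRNA and 75 after RB siRNA. Their median width was 112, 390.1, 164 and 585 kb in the same order. A lower summit inside an interval is therefore not listed, and the listed summit is an upper limit for every other position the interval covers. Levels are given as FPM, treatment fragments at the summit per 1000000 recovered fragments of the library. The recovered totals were 2458774, 1909343, 3479671 and 2423283 fragments, so that 1 fragment was 0.407, 0.524, 0.287 and 0.413 FPM. None of the 9 prostate luminal marker genes had a summit at a gene end in any library, and of 8 blood and endothelial markers only KDR had one, 2.09 FPM under PD0332991. A summit at a gene end is not a measure of expression, and these lists do not test the identity of the cells.

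Gene-end summits, those within 1000 bp of either end of a gene, were found at 27 of 246 members in the inhibitor control (11.0%, exact 95% interval 7.36 to 15.6) and at 30 with control siRNA (12.2%, 8.38 to 16.9). Over all protein-coding genes the shares were 16.8% and 17.3%. The other genes of chromosome 19 gave 9.79% (8.17 to 11.6) and 9.29% (7.71 to 11.1), and their intervals overlapped those of the members. Under PD0332991 only ZNF653 and ZNF527 had a gene-end summit, 2 members (0.813%, 0.0986 to 2.91), against 4.56% (3.46 to 5.90) of other chromosome 19 genes and 7.73% of all genes. After RB siRNA there were 6 members (2.44%, 0.900 to 5.23), beside 2.90% (2.03 to 4.02) of the other genes on the chromosome and 6.63% of all genes. These intervals treat each gene as 1 draw and cover counting error only, although neighbouring genes can share a summit.

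The member summits were low beside those of other chromosome 19 genes. Among summits of at least 5 FPM the members' share was below that of their neighbours on the chromosome in all 4 libraries. The inhibitor control held 17 such members (6.91%) against 8.71% of other chromosome 19 genes and 8.79% of all genes. The control siRNA library held 11 (4.47%) against 7.30% and 6.98%. The values were 2 members (0.813%) against 4.32% and 5.43% under PD0332991, and 5 members (2.03%) against 2.74% and 4.42% after RB siRNA. The order of members and other chromosome 19 genes in both controls thus turned with the minimum level. Of the member gene ends with a summit, 63.0% reached 5 FPM in the inhibitor control and 36.7% with control siRNA, against 89.0% and 78.6% of the other chromosome 19 genes with one. Over all protein-coding genes with a gene-end summit the shares were 52.3% and 40.4%.

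**Figure D1:**
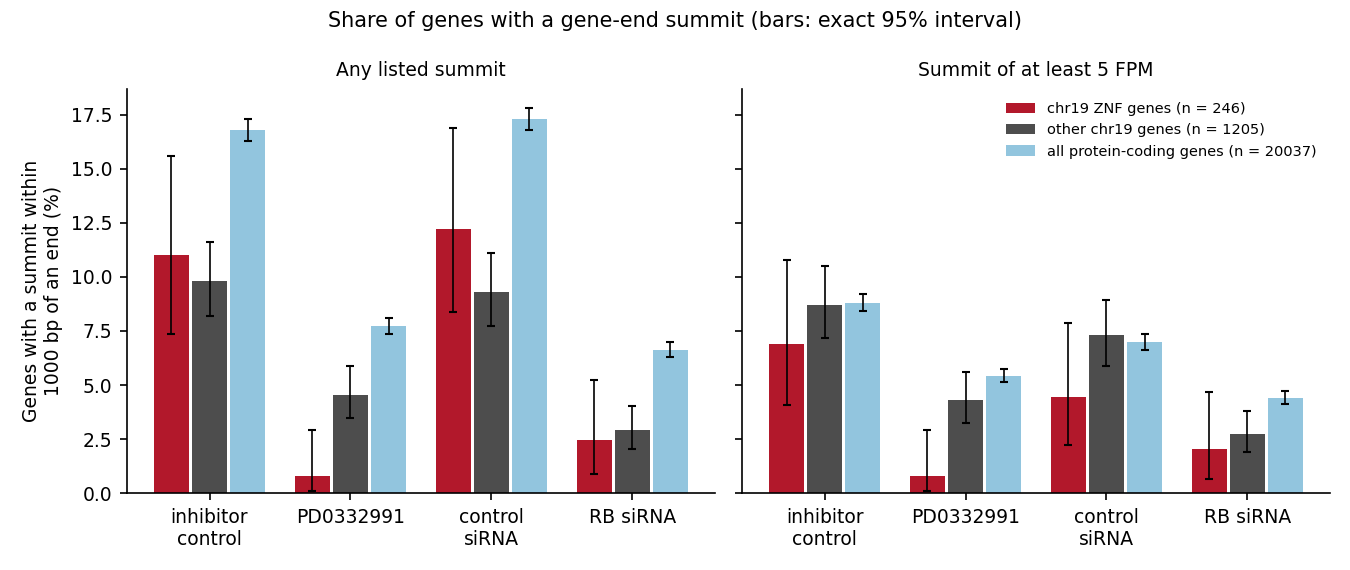
Share of genes with a summit within 1000 bp of an end, in percent, for the chromosome 19 ZNF genes, the other chromosome 19 genes and all protein-coding genes in each library. Error bars are exact 95% binomial intervals. The left panel counts any listed summit and the right panel summits of at least 5 FPM, where the members sit below both other sets in all 4 libraries.

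The median level of a member gene-end summit was 6.91 FPM in the inhibitor control (range 1.22 to 70.0, n = 27) and 3.74 FPM with control siRNA (1.15 to 26.4, n = 30). After RB siRNA it was 14.9 FPM (2.48 to 49.1, n = 6), and the 2 members under PD0332991 stood at 11.0 and 42.9 FPM. The other chromosome 19 genes had medians of 20.9, 13.4, 28.5 and 31.9 FPM in the same order. Over all protein-coding genes the medians were 5.29, 4.02, 7.84 and 8.38 FPM, below those of the members in each library except control siRNA. The higher medians of the treated libraries come with wider intervals, in which only the highest summit is listed. The number of fragments behind a member summit had a median of 17 in the inhibitor control and 13 with control siRNA, with lows of 3 and 4. The authors' fold over background at member summits ran from 1.02 to 3.41. The background recovered was 34562 read ends in the inhibitor control, 9592 under PD0332991, 36250 with control siRNA and 7641 after RB siRNA. The fold was 2.67 at 48.4 FPM in the inhibitor control (ZNF628) and 1.37 at 49.1 FPM after RB siRNA (ZNF524). Folds are thus not comparable between libraries, and the part of background depth in interval number and width was not tested. The authors' −log10 q was 0 at every member summit except ZNF524 (3.89) and ZNF628 (1.07) in the inhibitor control. A −log10 q of 0 was also the rule over all summits, at 96.1% in the inhibitor control, 97.5% under PD0332991, 98.1% with control siRNA and 98.5% after RB siRNA.

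**Figure D2:**
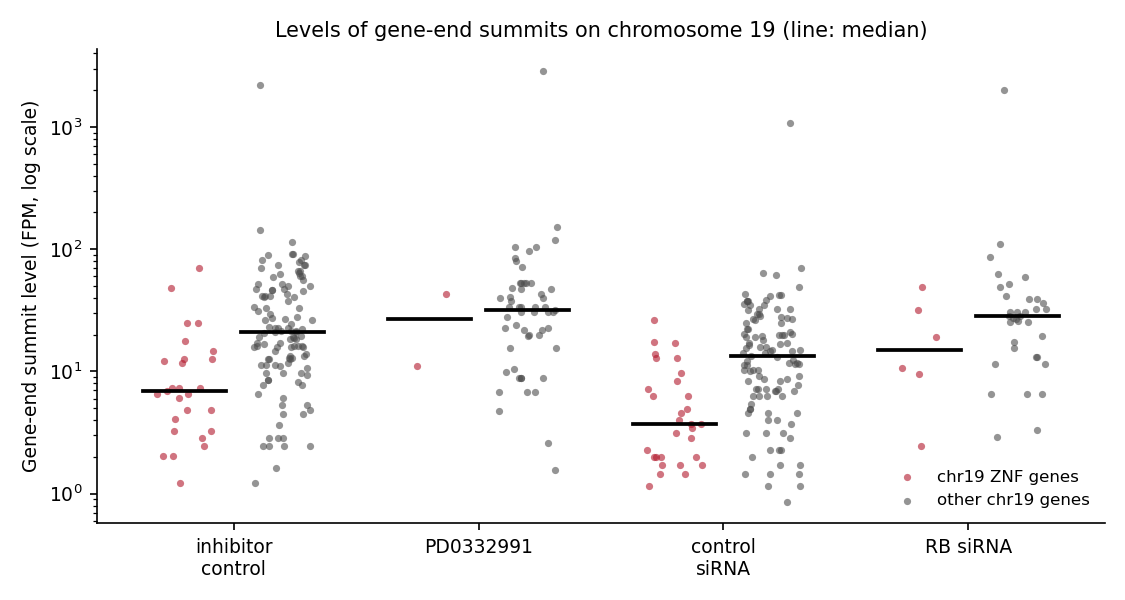
Level of each gene-end summit (FPM, log scale) for ZNF genes and other genes of chromosome 19 by library, 1 point per gene with the median as a line. The member medians, 6.91 FPM in the inhibitor control and 3.74 FPM with control siRNA, lie below those of the other genes, 20.9 and 13.4 FPM.

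Where the strand of the gene is known, the member summits lay at its start. They were nearest to the 5′ end for 23 of 24 members in the inhibitor control, 23 of 25 with control siRNA, 5 of 5 after RB siRNA and 2 of 2 under PD0332991. The median distance from the 5′ end was 124, 124, 122 and 292 bp in that order, against 244, 263, 255 and 286 bp for other chromosome 19 genes and 173, 169, 182 and 187 bp for all protein-coding genes. Over all protein-coding genes 94.7%, 94.8%, 96.8% and 96.3% of these summits were nearest to the 5′ end, near the members' 95.8% and 92% in the controls. The exceptions were ZNF324 in both controls, whose 3′ end lies next to the start of ZNF446, and ZNF580 with control siRNA. The window of 1000 bp did not cut through a group of summits: the farthest summit inside it was 589 bp (ZNF324) from a gene end in the inhibitor control and 621 bp (ZNF419) with control siRNA, and the nearest outside it were at 1094 bp (ZNF787) and 1197 bp (ZNF544). In the treated libraries the farthest inside were at 414 bp (ZNF653) and 243 bp (ZNF524), and the nearest outside at 3806 bp (ZNF730) and 6316 bp (ZNF865).

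Counting libraries per gene, 196 members had no gene-end summit in any library, 39 had one in 1 library, 7 in 2, 4 in 3 and none in all 4. Any summit was thus seen at 50 members (20.3%), against 202 of the 1205 other chromosome 19 genes (16.8%), of which 9 had one in all 4 libraries. No such count was made over all protein-coding genes, whose share exceeded that of the members in each single library. Both controls listed 9 of the same members, 33.3% of those in the inhibitor control and 30% of those with control siRNA. The shares were 39.0% and 41.1% for other chromosome 19 genes and 54.0% and 52.6% over all protein-coding genes. The 4 members with a summit in 3 libraries were ZNF627, ZNF274, ZNF837 and ZNF524. Each was missing under PD0332991 alone, where ZNF837 fell partly in a gap between intervals and the other three were covered by an interval with a summit elsewhere.

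Promoters are shown for ZNF628 and ZNF653, the 2 highest members with an entry in the RefSeq promoter table. They are also shown for 3 of the members with a summit in 3 libraries. The latter 3 were chosen after their values were seen. Each runs from 250 bases before to 50 bases after the gene's start on GRCh38.p14, 5′ to 3′ on the gene's strand, and capitals mark the motifs searched. In the order shown they are chr19:55476367-55476666 (+), chr19:11505790-11506089 (−), chr19:11597233-11597532 (+), chr19:58182811-58183110 (+) and chr19:58380981-58381280 (−).
ZNF628: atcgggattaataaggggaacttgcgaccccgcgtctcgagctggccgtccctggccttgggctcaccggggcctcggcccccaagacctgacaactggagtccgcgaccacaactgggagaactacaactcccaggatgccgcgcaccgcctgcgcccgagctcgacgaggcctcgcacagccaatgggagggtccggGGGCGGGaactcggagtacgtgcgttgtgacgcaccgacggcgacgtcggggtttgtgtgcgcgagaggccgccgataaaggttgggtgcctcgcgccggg
ZNF653: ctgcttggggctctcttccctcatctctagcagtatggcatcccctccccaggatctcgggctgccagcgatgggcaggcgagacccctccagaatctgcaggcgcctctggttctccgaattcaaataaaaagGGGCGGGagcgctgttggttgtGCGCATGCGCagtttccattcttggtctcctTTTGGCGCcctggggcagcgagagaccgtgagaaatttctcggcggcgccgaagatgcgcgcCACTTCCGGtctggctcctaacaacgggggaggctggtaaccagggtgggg
ZNF627: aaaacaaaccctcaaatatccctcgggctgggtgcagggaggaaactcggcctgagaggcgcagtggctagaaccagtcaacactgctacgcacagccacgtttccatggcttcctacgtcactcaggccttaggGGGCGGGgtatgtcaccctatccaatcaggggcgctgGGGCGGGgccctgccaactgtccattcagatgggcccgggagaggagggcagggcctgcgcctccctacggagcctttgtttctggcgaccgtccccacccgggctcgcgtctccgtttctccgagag
ZNF274: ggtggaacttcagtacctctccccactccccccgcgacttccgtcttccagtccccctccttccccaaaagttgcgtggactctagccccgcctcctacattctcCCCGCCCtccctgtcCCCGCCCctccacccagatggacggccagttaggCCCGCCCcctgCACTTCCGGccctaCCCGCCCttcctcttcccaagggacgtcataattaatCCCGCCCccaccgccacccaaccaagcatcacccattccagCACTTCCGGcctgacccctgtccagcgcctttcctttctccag
ZNF837: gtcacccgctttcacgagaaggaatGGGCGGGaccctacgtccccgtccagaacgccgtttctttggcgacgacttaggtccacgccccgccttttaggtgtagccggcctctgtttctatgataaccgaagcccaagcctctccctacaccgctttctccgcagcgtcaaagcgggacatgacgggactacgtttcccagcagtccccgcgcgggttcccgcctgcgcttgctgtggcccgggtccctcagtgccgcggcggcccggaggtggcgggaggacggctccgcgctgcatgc

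ZNF274 encodes a KRAB zinc finger protein that brings SETDB1 to the 3′ parts of other ZNF genes (gene at chr19:58183061-58213562). Its promoter holds 2 copies of CCGGAAGT, the core of an ETS family site, read on the opposite strand, and 5 copies of GGGCGGG, the GC box of SP and KLF factors, also on the opposite strand. Its summit stood 8 bp before the gene start in the inhibitor control, 42 bp after it with control siRNA and 81 bp before it after RB siRNA, each inside the window shown. The nearest copy of CCGGAAG was 20, 30 and 1 bp from these summits. Whether these distances are shorter than those to other letters in the window was not tested. The level was 12.6 FPM in the inhibitor control (31 fragments, exact Poisson 95% interval 8.57 to 17.9), 6.32 with control siRNA (22 fragments, 3.96 to 9.57) and 10.7 after RB siRNA (26 fragments, 7.01 to 15.7). The control siRNA library was lowest, and its interval overlapped both others.

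ZNF627 (chr19:11597483-11619161) holds 2 GC boxes and no ETS core in the window shown. Its summit was 163 bp before the start in the inhibitor control and 122 bp before it in both siRNA libraries, at the same base in the latter. The 3 levels were 12.2 FPM (8.23 to 17.4) in the inhibitor control, 9.77 (6.77 to 13.7) with control siRNA and 9.49 (6.02 to 14.2) after RB siRNA, and their intervals overlapped. ZNF837 (chr19:58367623-58381030) was at 14.6 FPM (10.3 to 20.3), 13.8 (10.2 to 18.3) and 19 (13.9 to 25.3) in the same libraries. These intervals overlapped too, and the summits lay 136 to 201 bp into the gene, beyond the window shown.

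ZNF524, whose protein binds telomeric repeats, had the highest member level in 3 libraries (chr19:55599574-55603138). It stood at 70.0 FPM (172 fragments, 59.9 to 81.2) in the inhibitor control, 26.4 FPM (92 fragments, 21.3 to 32.4) with control siRNA and 49.1 FPM (119 fragments, 40.7 to 58.8) after RB siRNA. These 3 intervals did not overlap. The summit was also at an end of FIZ1, a neighbouring zinc finger gene that is no member, so the signal cannot be assigned to either gene. The control siRNA summit lay 359 bp inside ZNF524, whereas those of the inhibitor control and RB siRNA lay 307 and 243 bp outside it. Under PD0332991 ZNF524 was covered by an interval whose summit was 68.6 FPM at a distance of 1240.1 kb, so its level there was at most 68.6 FPM.

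ZNF628 had the second highest member level (chr19:55476617-55484487). It reached 48.4 FPM (40.1 to 57.9) in the inhibitor control and 31.8 FPM (25.1 to 39.7) after RB siRNA. These summits lay 86 and 151 bp into the gene, beyond the window shown. The control siRNA library covered it with the ZNF524 summit of 26.4 FPM, and PD0332991 with the summit of 68.6 FPM. ZNF653, which encodes a transcriptional repressor, was the highest member under PD0332991 at 42.9 FPM (34.2 to 53.3), 414 bp into the gene (chr19:11483429-11505839). That summit was also at an end of ECSIT, an adaptor gene of innate immune signalling. ZNF653 lay partly in a gap in the inhibitor control and was covered by summits of 19.5 FPM with control siRNA and 26.8 FPM after RB siRNA. The promoter window shown for ZNF653 ends before its PD0332991 summit. That window holds an ETS core, an E2F-type TTTGGCGC, a GC box and the NRF1 core GCGCATGC on both strands.

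Other members among the 5 highest of a library followed. ZNF324 and ZNF446 shared 1 summit, at 24.8 FPM (19 to 31.9) in the inhibitor control and 12.9 FPM (9.43 to 17.3) with control siRNA. Both genes lay in a gap under PD0332991, and after RB siRNA ZNF446 lay in a gap and ZNF324 partly in one. ZNF77 had 17.9 FPM (13.0 to 24.0) in the inhibitor control only, with upper limits of 234 to 622 FPM elsewhere, too high to tell. With control siRNA ZNF787 reached 17.5 FPM (13.4 to 22.5) and ZNF580 reached 17.0 FPM (12.9 to 21.9). ZNF527 was the single member listed in both libraries of the inhibitor pair, at 7.32 FPM (4.34 to 11.6) in the control and 11.0 FPM (6.81 to 16.8) under PD0332991, with overlapping intervals.

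**Figure D3:**
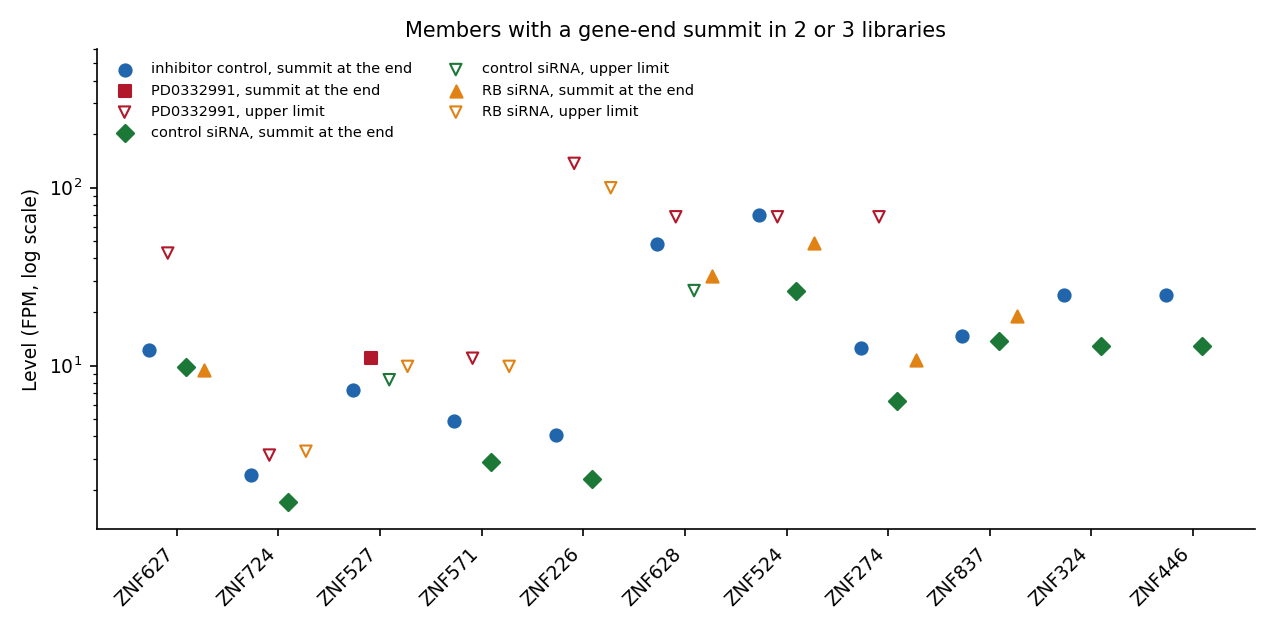
Level (FPM, log scale) of the 11 members with a gene-end summit in 2 or 3 libraries, in order along the chromosome. Filled symbols are summits listed at the gene end and open triangles are upper limits from the interval that covers both ends, and no symbol is drawn where an end lay in a gap. ZNF524 is highest at 70.0, 26.4 and 49.1 FPM, and most limits under PD0332991 lie above the levels of the other libraries.

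For direct comparison, a summit of one library was paired with a summit of another where both were mutually closest and at most 250 bp apart, and where the geometric mean of their levels reached 5 FPM. A pair counted as above or below when the exact 95% interval of its log2 ratio excluded the median over all shared summits. PD0332991 over its control had 886 shared summits, of which 9.14% were above and 7.67% below a median shift of 0.20. The single shared member, ZNF527, had a log2 ratio of 0.59 (−0.39 to 1.58) and was neither. RB siRNA over its control had 749 shared summits, 7.61% above and 5.74% below a shift of 0.45. Its 3 shared members were ZNF627 at −0.04 (−0.87 to 0.76), ZNF274 at 0.76 (−0.11 to 1.65) and ZNF837 at 0.46 (−0.16 to 1.07), and none was beyond the shift.

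The 2 controls were compared in the same way, and more of their shared summits lay beyond the shift than in either treated pair. The inhibitor control over the control siRNA library had 1191 shared summits, 11.9% above and 8.40% below a shift of 0.59. Its shared members were ZNF627 at 0.32 (−0.44 to 1.07), ZNF274 at 1.00 (0.16 to 1.85), ZNF837 at 0.09 (−0.58 to 0.74) and the summit of ZNF324 and ZNF446 at 0.94 (0.36 to 1.53). None was beyond the shift. With no centring ZNF274 and the ZNF324 summit were above 0, and with the shift of shared chromosome 19 summits (0.83) ZNF837 was below it. This comparison shares 1 library with each of the other two pairs.

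ZNF524 was outside this matching because its summit with control siRNA lay over 250 bp from the others. The summit of RB siRNA was 0.602 kb from that of the control siRNA library, which bounds the level at its position to 26.4 FPM. Against this bound the log2 ratio was 0.89, with a counting interval of 0.49 to 1.30 and a shift of 0.45. The same value for the inhibitor control relative to control siRNA was 1.40 (1.03 to 1.79), with a shift of 0.59. The inhibitor control was thus higher at ZNF524 than the control siRNA library beyond counting error, also against the shift of shared chromosome 19 summits (0.83). The value after RB siRNA lay just beyond its shift, and within counting error of the shift of shared chromosome 19 summits (0.60). For ZNF628 the same bounds were 0.27 (−0.19 to 0.72) and 0.87 (0.47 to 1.28), within counting error of the shifts.

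Most member summits of the controls could not be followed into the treated libraries. Of 25 distinct member summits in the inhibitor control, 1 had a partner under PD0332991, 20 lay in an interval with a summit as high or higher elsewhere, 1 (ZNF524) in one with a lower summit that was not lower beyond counting error, and 3 in gaps. Of 29 with control siRNA, 3 had a partner after RB siRNA, 25 were hidden behind one at least as high and 1 was in a gap. The 25 include ZNF524, which was listed in both libraries with summits 0.602 kb apart, beyond the matching distance. The smaller number of members listed in the treated libraries therefore does not show a loss of signal at any of them. In the other direction, the 6 member summits after RB siRNA had 3 partners with control siRNA. The others, at ZNF430, ZNF524 and ZNF628, lay in intervals with a lower summit. Beyond counting error and the shift of 0.45 it was lower at ZNF524 only. Against this bound the log2 ratio was 0.11 (−1.70 to 1.82) at ZNF430, on 6 fragments, and 0.27 (−0.19 to 0.72) at ZNF628.

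The intervals do set limits. Where both gene ends were covered, the upper limit for a member had a median of 6.91 FPM in the inhibitor control and 6.32 FPM with control siRNA, against 32.9 and 20.1 FPM for the other chromosome 19 genes and 6.51 and 5.17 FPM for all genes. The limit was below 10 FPM for 142 of 235 members (60.4%) in the inhibitor control and 172 of 239 (72.0%) with control siRNA, against 16.5% and 20.9% of the other genes of the chromosome. Over all protein-coding genes it was 62.3% and 71.2%, so the members were near the share of genes in general. After RB siRNA it was below 10 FPM for 72 of 243 members (29.6%), 4.90% of the other chromosome 19 genes and 40.8% of all genes. Under PD0332991 it was below 10 FPM for 11 of 240 members (4.58%), 2.55% of the others on the chromosome and 37.8% of all genes. The median limits of members and others were 42.9 and 63.4 FPM, so that library says little about single members.

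**Figure D4:**
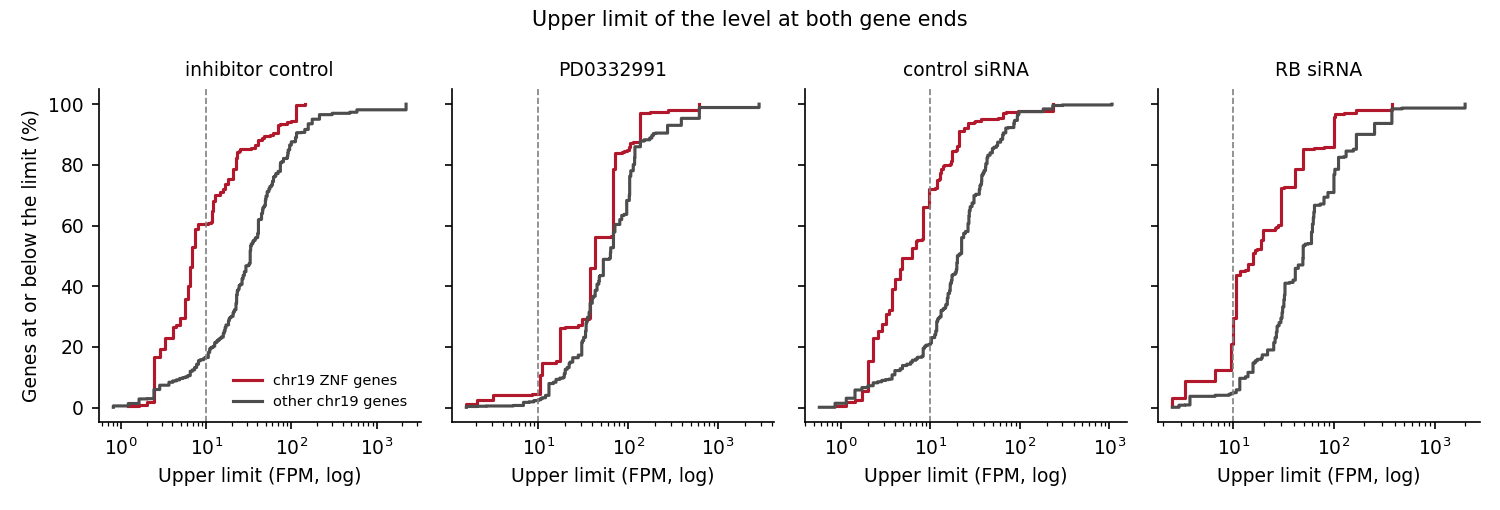
Cumulative percent of genes by upper limit of the level at both gene ends (FPM, log scale), for ZNF genes and other genes of chromosome 19 in each library, with a dashed line at 10 FPM. The member curve lies to the left at 10 FPM in all 4 libraries, 60.4% against 16.5% in the inhibitor control and 72.0% against 20.9% with control siRNA.

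Along the chromosome, runs of at least 5 members no more than 250 kb apart formed 12 clusters with 226 of the 246 members, and 49 of the 50 members with a gene-end summit stood in them. The clusters covered 12.2 Mb. They held 4.01 summits per Mb in the inhibitor control and 3.35 with control siRNA, against 5.55 and 4.29 in the rest of the chromosome, with median levels of 6.51 and 3.16 FPM against 11.0 and 7.18 FPM. In both treated libraries the clusters held 0.981 summits per Mb, against 1.76 (PD0332991) and 1.37 (RB siRNA) in the rest.

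The pericentromeric cluster from ZNF737 to ZNF91 held only low summits (chr19:20530276-23395471). It spans 2.87 Mb, with 25 members and no other protein-coding gene, and includes ZNF91, which represses SVA and other retrotransposons in primates. No summit inside it reached 5 FPM in any library, and the highest was 3.25 FPM in the inhibitor control, 3.14 under PD0332991, 2.87 with control siRNA and 3.30 after RB siRNA. The upper limit was below 5 FPM for 24 of 24 members with both ends covered in the inhibitor control, 23 of 24 with control siRNA and 21 of 25 after RB siRNA. Under PD0332991 it was so for 7 of 25, the rest being covered by a summit of up to 17.3 FPM. Over all protein-coding genes with both ends covered the shares were 42.2%, 49.5%, 19.3% and 18.4% in that order. The clusters ZNF554 to ZNF77 and ZNF302 to ZNF792 had no summit of any level inside them in any library, and no limit below 5 FPM. The ZNF77 summit of the inhibitor control lay 128 bp outside its cluster. The cluster ZNF317 to ZNF846 also had no summit of 5 FPM inside it in any library. Its limit was below 5 FPM for 9 of 10 members with control siRNA, but for 1 of 10 in the inhibitor control. In the cluster ZNF737 to ZNF91, low summits were still listed at the ends of 6 members. They were ZNF708 (3.25 FPM), ZNF429 (1.22) and ZNF724 (2.44) in the inhibitor control. With control siRNA they were ZNF100 (1.44), ZNF492 (1.15) and ZNF724 (1.72), and after RB siRNA ZNF430 (2.48). They rest on 3 to 8 fragments each.

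The cluster from ZNF628 to ZNF580 holds the 2 members with the highest gene-end levels of the inhibitor control (chr19:55476617-55645623). It is 0.169 Mb long, holds 7 members and 5 other genes, and had summits of up to 70.0 FPM in the inhibitor control, 26.4 with control siRNA and 49.1 after RB siRNA, with none listed inside it under PD0332991. The highest summits inside any cluster were higher still, 115 FPM in the inhibitor control, 137 under PD0332991, 65.5 with control siRNA and 99.9 after RB siRNA, all in the cluster ZNF575 to ZNF180 and none at a member's end. The cluster ZNF628 to ZNF580 had 3 members with a gene-end summit, 42.9% of its members. In the largest cluster by members, ZNF264 to ZNF446 at the end of the long arm, 9 of 43 members (20.9%) had one, and in ZNF175 to ZNF331 10 of 39 (25.6%) did. Only the cluster ZNF302 to ZNF792, with 5 members, had none.

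**Figure D5:**
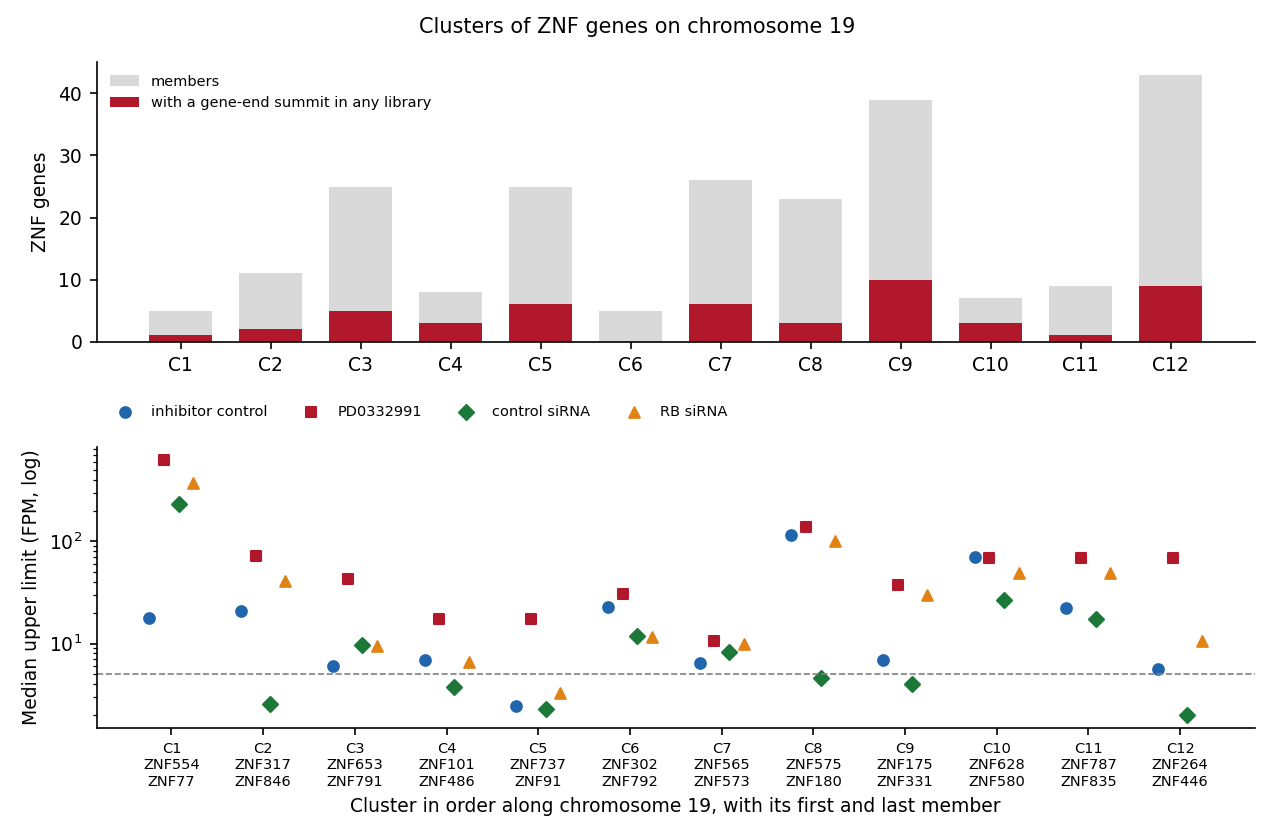
The 12 clusters in order along chromosome 19. Bars give the number of members and, in red, those with a gene-end summit in any library, and points below give the median upper limit of the level at member ends per library (FPM, log scale, dashed line at 5 FPM). The cluster ZNF737 to ZNF91 (C5) has the lowest medians in the inhibitor control and RB siRNA, 2.44 and 3.30 FPM.

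Summits in gene bodies were listed at few members. A summit inside the body and over 1000 bp from both ends was found at 15 members (6.10%) in the inhibitor control, 10 (4.07%) with control siRNA, 2 (0.813%) under PD0332991 and 1 (0.407%) after RB siRNA. In the same order the shares were 7.39%, 6.14%, 2.74% and 3.32% of other chromosome 19 genes and 11.0%, 11.5%, 3.81% and 3.25% of all protein-coding genes. Counting only summits over 2500 bp from both ends, the controls differed little, with 5.28% of members against 5.39% of other chromosome 19 genes in the inhibitor control and 3.25% against 3.57% with control siRNA. Per Mb of body the members had 2.39, 1.65, 0.299 and 0.150 summits, other chromosome 19 genes 3.83, 2.93, 1.38 and 1.33, and all genes 2.31, 2.57, 0.676 and 0.543. The median length was 23.2 kb for members, 12.8 kb for other chromosome 19 genes and 24.1 kb for all genes.

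ZNF575 had the highest body summit of the inhibitor control, at 24.0 FPM, and one of 11.8 FPM with control siRNA, 59.4% and 61.4% of the way along the gene. ZNF444, a SCAN domain gene, had 22.4 FPM in the inhibitor control. ZNF558, a repressor of a mitophagy gene in neural cells, had 20.7 and 11.2 FPM in the 2 controls, at a summit that is also an end of MBD3L1. The highest body summit with control siRNA, 17.0 FPM in ZNF581, is the one at the end of ZNF580. The body summits of the treated libraries were low: ZNF723 (1.57 FPM) and ZNF536 (2.09 FPM), a repressor of neuronal differentiation, under PD0332991, and ZNF43 (3.30 FPM) after RB siRNA. The 3.30 FPM summit of ZNF43 lay within 30 bp of those of the 2 controls, 2.44 FPM in the inhibitor control and 2.87 FPM with control siRNA.

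Member promoters were rich in ETS cores. Of 246 members, 216 matched an entry in the RefSeq promoter table. The letters CCGGAAGT, on either strand, were present in 45 of them (20.8%), against 43 of 969 promoters of other chromosome 19 genes (4.44%), 6.19% of 15842 protein-coding promoters and 4.44% of all 27305 promoters of the same length. The shorter CCGGAAG, which CCGGAAGT contains, was in 98 (45.4%), against 13.0%, 14.2% and 10.7%. GGAAGTG, which can overlap both, was in 22.7%, against 10.9%, 13.0% and 11.5%. Members descend from common ancestors and neighbouring copies can share promoter sequence, so these promoters are not independent of each other. Members had a median of 20 CG dinucleotides and 59.8% G or C, against 21 and 64% for other chromosome 19 promoters, 22 and 62.7% for protein-coding promoters, and 14 and 58.3% for all promoters.

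The same motifs were counted in member promoters with and without a gene-end summit in any library. Of members with an entry and a summit, the promoter window held the summit itself for 14 of 24 in the inhibitor control and 1 of 2 under PD0332991. It did so for 11 of 25 with control siRNA and 2 of 5 after RB siRNA. For some members, such as ZNF584 and ZNF345, this window was not at the gene start used for the summits. CCGGAAGT was in 11 of 44 member promoters with a summit (25%) and 34 of 172 without (19.8%), and CCGGAAG in 50% and 44.2%. GGGCGGG was in 32 of 44 with a summit (72.7%) and 81 of 172 without (47.1%), beside 51.2% of other chromosome 19 promoters, 44.4% of protein-coding promoters and 32.9% of all. GGAAGTG was in 36.4% and 19.2%. Among the E2F-type motifs, TTTGGCGG was in 12 member promoters (5.56%), 5 of the 44 with a summit and 7 of the 172 without. TTTGGCGC was in 9 (4.17%), 2 of the 44 and 7 of the 172. The shares over all members compare with 0.929% and 0.826% of other chromosome 19 promoters. For protein-coding promoters the shares were 0.871% and 0.890%, and for all promoters 0.681% and 0.659%. TTTCCCGC was in 1.39% of member promoters, 3.51% of others on the chromosome, 2.18% of protein-coding promoters and 1.66% of all. In the same order TTTGCCGC was in 1.39%, 0.310%, 0.713% and 0.564%, and the CRE TGACGTCA in 3.24%, 3.41%, 2.59% and 1.98%. The NRF1 core GCGCATGC was in 4.17%, 5.26%, 4.26% and 3.27%, and the YY1 core AAGATGGC in 6.48%, 5.57%, 3.91% and 3.03%. TCTCGCGA was in 1.39%, 1.03%, 1.75% and 1.19%. A match is a stretch of letters, not a bound site.

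The partners of KRAB zinc finger proteins in silencing were read from a list of 26 genes. Of these, 8 had a gene-end summit in the inhibitor control, 3 under PD0332991, 8 with control siRNA and 4 after RB siRNA. These are 30.8%, 11.5%, 30.8% and 15.4% of the list, beside 16.8%, 7.73%, 17.3% and 6.63% of all protein-coding genes. In any library 14 of the 26 had one, a count that was not made over all protein-coding genes. CBX5, which encodes the heterochromatin protein HP1 alpha, had one in all 4 libraries, at 11.8 FPM in the inhibitor control, 13.6 under PD0332991, 11.8 with control siRNA and 14.0 after RB siRNA. CBX3, for HP1 gamma, had 10.2, 12.4 and 15.7 FPM in the inhibitor control, control siRNA and RB siRNA. CHD4, the remodeller of the NuRD complex, had 73.6 FPM in the inhibitor control and 62.3 FPM under PD0332991. TRIM28 itself, on chromosome 19, was listed with control siRNA only, at 29.3 FPM, and SETDB1 in no library. The 13 chromosome 19 genes of the related ZFP, ZSCAN, ZKSCAN and ZIK families had no gene-end summit in any library, which with 13 genes allows a share of up to 24.7% (upper bound of the exact 95% interval). The 263 ZNF genes on other chromosomes had gene-end summits more often than the members in each library, 22.1%, 9.89%, 18.6% and 9.13% in the inhibitor control, PD0332991, control siRNA and RB siRNA.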

How the data were processed

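CUT&Tag reads of 4 libraries were handled with bcl2fastq 2.17, Trimmomatic 0.33, Bowtie2 version 2 and MACS2 2.1.0 on hg38, per the submitters' processing notes. Settings are not given in the sources used here. Each deposited list holds, per interval, the authors' score (10 times the −log10 p, cut to a whole number), the authors' fold over background at the summit (a ratio), and the authors' −log10 p-value and −log10 q-value. Fold and p were solved with the MACS2 formulas (pseudocount 1, Poisson tail) for the fragments at each summit, whole within 0.05. Totals assume a genome of 2.7 Gb and a background window of 10000 bp, neither given in the sources used here. The recovery was checked on lists simulated with the same formulas, which does not test the assumed genome size and window. The calling of shared summits was checked on simulated counts with counting error only.

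Gene positions and promoters are those of RefSeq, on the same build (GRCh38). Members and lists were chosen with earlier results of these data known. Genes named were those with a gene-end summit in all 4 libraries (none), the 5 highest gene-end and 3 highest gene-body members per library, and the 3 shared summits farthest above and below the shift per pair. Other genes are named as ends of a range or members of small counts. Intervals are exact (binomial, Poisson or conditional, 95%) and cover counting error only, since PCR copies cannot be told apart here. Python 3.11.15, numpy 2.4.6, pandas 2.3.3, scipy 1.17.1 and matplotlib 3.10.9 were used. Alternatives changed the window, the minimum level, q, fold, gene assignment, comparison set, matching and centring. Protein sequences were not used here.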

Additional observations from a re-analysis of the deposited data

How the results depend on the processing

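No paired analysis was possible because each group held 1 library, and leaving out a library leaves no comparison. The members' gene-end share minus that of other chromosome 19 genes was 1.18 percentage points in the inhibitor control, −3.75 under PD0332991, 2.90 with control siRNA and −0.47 after RB siRNA. Both control values turned sign under several settings. With a minimum of 5 FPM they were −1.80 and −2.83, with the authors' −log10 q of at least 2 they were −1.34 and −0.33 (PD0332991 −0.08), and with the authors' fold of at least 2 they were −2.76 and −1.99 (PD0332991 −0.25). A window of 2500 bp gave −1.67 in the inhibitor control, 0.21 with control siRNA and −5.41 under PD0332991, a window of 500 bp gave 0.03 after RB siRNA, and assigning a summit to the nearest gene only gave −2.34 under PD0332991. Against ZNF genes of other chromosomes the differences were −11.08, −9.07, −6.44 and −6.69 for the 4 libraries in the order above. The cause of these changes was not tested. The log2 ratio of the median levels of members and other chromosome 19 genes was −1.60, −1.84 and −0.94 in the inhibitor control, control siRNA and RB siRNA, and −0.48, −0.39 and −0.13 when the authors' fold replaced FPM. The body share after RB siRNA differed by −2.91 points, and by −1.17 for summits over 2500 bp from both ends. With that distance the difference went from −1.29 to −0.11 in the inhibitor control and from −2.08 to −0.32 with control siRNA. The number of members beyond the shift between the controls was 0, 1 when centred on chromosome 19 (ZNF837) and 2 without centring (ZNF274 and the ZNF324 summit). Without centring ZNF627 and ZNF837, uncalled, went from −0.27 to 0.32 and from −0.50 to 0.09 in that comparison. The log2 value of ZNF524 after RB siRNA went from 0.45 above the shift to 0.29 above that of shared chromosome 19 summits, no longer beyond counting error, an alternative for this gene chosen after seeing the data.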

Other observations

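Among members the library-level counts by motif were as follows, for the 216 with a promoter entry. Of the 98 promoters with CCGGAAG, 11 (11.2%) had a gene-end summit in the inhibitor control and 13 (13.3%) with control siRNA, against 13 (11.0%) and 12 (10.2%) of the 118 without it. Over other chromosome 19 genes the shares were 16.7% with and 9.61% without the letters in the inhibitor control, and 14.3% and 9.13% with control siRNA. Over all protein-coding promoters they were 22.9% and 16.9%, and 22.2% and 17.3%. The median member level was 6.10 FPM with and 7.32 FPM without CCGGAAG in the inhibitor control, and 2.01 and 5.17 FPM with control siRNA. Member promoters with GGGCGGG had a gene-end summit in 17 of 113 cases (15.0%) in each control, against 7 of 103 (6.80%) and 8 of 103 (7.77%) without it. Over all protein-coding promoters the shares were 24.5% with and 12.3% without it in the inhibitor control, and 25.1% and 12.4% with control siRNA. After RB siRNA all 5 members with a promoter entry and a summit held GGGCGGG, as did 24 of 33 such promoters of other chromosome 19 genes (72.7%) and 720 of 1093 protein-coding ones (65.9%).

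Where a member with a summit had CCGGAAG in its promoter, the median distance from the summit to the nearest copy was 131 bp in the inhibitor control (11 members) and 83 bp with control siRNA (13 members), and 5 and 7 of them lay within 100 bp. At ZNF841 the summit of 2.85 FPM in the inhibitor control fell on the motif (0 bp), and at ZNF816 the summit of 6.10 FPM was 25 bp away. The farthest were 8962 bp (ZNF324) and 7175 bp (ZNF584) in the inhibitor control, and 8912 bp (ZNF324) and 2147 bp (ZNF580) with control siRNA. For some members the promoter window was not at the gene start used for the summits. The ZNF584 summit of the inhibitor control was 228 bp before that start, yet 7175 bp from the nearest copy. The ZNF345 summit was 550 bp into the gene, yet 238 bp from a copy. The letters were searched only in the promoter window, and most member summits lay near the gene start. Short distances can therefore follow from the search alone. No distances for other letters or other genes were set beside these, so closeness to this motif was not tested.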
